A study of Sus scrofa with 30 samples.

Results

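Milk fat leaves the secretory cell of the mammary gland as droplets wrapped in membrane, and 7 genes of that process were followed here through the lactation cycle of the sow: BTN1A1, XDH, PLIN2, PLIN3, MFGE8, MUC1 and CIDEA. The genes were chosen by name, with earlier results of these data known. All of their transcripts in the table were taken, 22 of 61773, together with the sum of the transcripts of each gene, 7 of 26019 gene sums. Mammary parenchyma below the third left teat had been taken from multiparous Danish Landrace × Yorkshire half-sibling sows at 5 stages with 6 sows each. MG was mid gestation at day 70 and LG late gestation at day 110, EL and PL were days 2 and 10 of lactation, and W2 followed weaning by 2 days. No treatment or altered genotype is given for any stage, and the tissue is a mixture of cell types. In each stage 3 samples lay almost on the mean of the other 3 and were not counted, so that n = 3 per stage and 15 in all.

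In the secretory alveolar cell, triglyceride collects in cytoplasmic droplets that carry perilipins (PLIN2, PLIN3) and fuse with help of proteins of the CIDE family (CIDEA). At the apical surface butyrophilin (BTN1A1) and xanthine dehydrogenase (XDH) bind each other and the droplet coat, and the droplet buds off inside an envelope of plasma membrane. The envelope carries the mucin MUC1 and lactadherin (MFGE8), a protein that is also known for tagging dying cells for uptake during involution.

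Values are the authors' FPKM per transcript, which summed to between 997480 and 1002643 in each sample and are called units. The total is therefore fixed in each sample, and a gene can fall because others take more of it. In the 3 counted PL samples the 20 most abundant transcripts took 59.9%, 43.0% and 42.2% of all units (samples 2, 3 and 6), against 33.4% to 41.7% in EL and 25.6% to 34.3% in MG, LG and W2. Milk protein genes fitted the tissue label, since the summed units of CSN2, CSN3, LALBA and WAP were 43237 to 80213 in EL, 53702 to 193279 in PL and 3048 to 5475 in W2. In LG the sum was 16638 to 42020, with its highest sample close to the lowest of EL. The samples titled EL and MG carry each other's stage name in a further field of their records, so they are named here by title, and the milk protein sum of the samples titled MG was 7838 to 24043.

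The 7 genes stood at very different levels. Over the 15 counted samples PLIN2 averaged 1172 units, MFGE8 1110 and XDH 626, which placed them 119th, 127th and 162nd among 26019 gene sums. PLIN3 averaged 47.5 units and MUC1 36.4. CIDEA (5.43 units) and BTN1A1 (3.50 units) ranked 11521st and 14150th. The binding partners BTN1A1 and XDH were thus far apart in level, although BTN1A1 was measured by a single reference transcript and assembled transcripts without coordinates could not be assigned to any of the 7 genes.

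**Figure D1:**
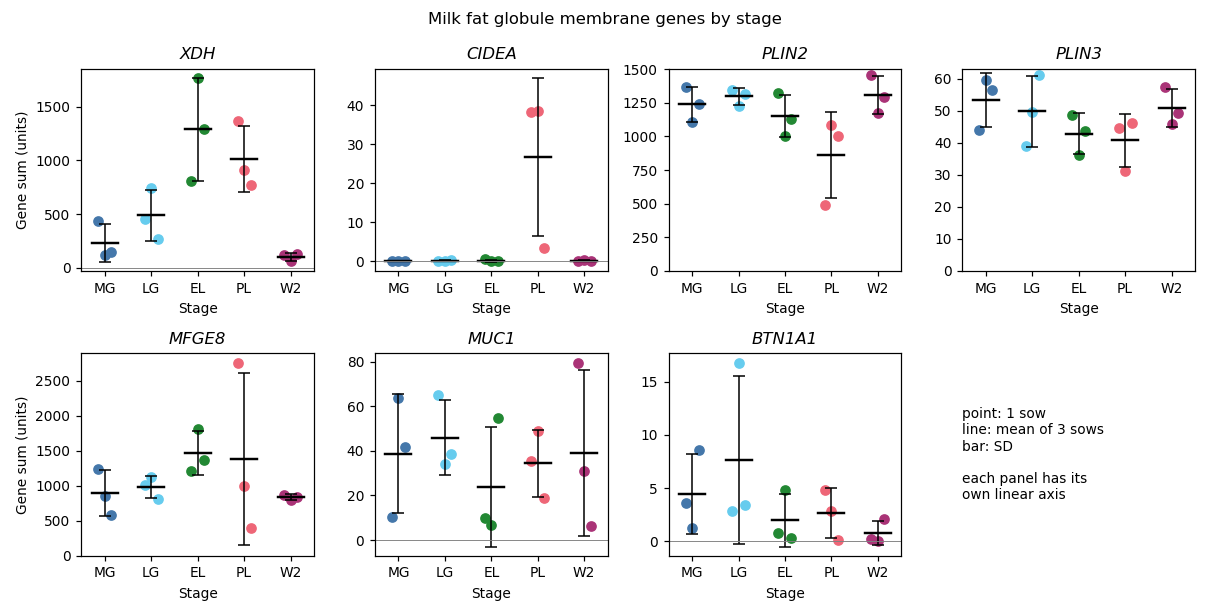
Gene sums in units on the vertical axis for the 5 stages on the horizontal axis, with 1 point per sow, the mean of 3 sows as a line and the SD as a bar, each gene on its own linear axis. XDH was high in EL and PL, CIDEA stood out in PL, and the other 5 genes overlapped between most stages.

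XDH and CIDEA were the members with a call over the 5 stages, as defined below, and they were high at different times. CIDEA entered the table through PL alone, so a high PL value was fixed in advance. XDH was high on both lactation days and low 2 days after weaning, while CIDEA was near 0 everywhere except on day 10 postpartum. Levels were compared with limma on log2(units + 0.5), all 5 stages in a single fit, and a change was called at a Benjamini-Hochberg adjusted p below 0.05 over all gene sums. Over any stage 2 of the 7 members were called, where 18.3% of all gene sums were. At the transcript level 4 of 22 transcripts were called, where the share was 2.60% of all transcripts. All 4 belonged to XDH and CIDEA, and without CIDEA, whose entry into the table is described below, 1 of 6 members and 2 of 20 transcripts were called.

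XDH, the enzyme of purine breakdown that also serves as a structural partner of butyrophilin on the globule, lies at chr3:107987060-108052043 (Sscrofa11.1). Its units were 436, 122 and 144 in MG, 451, 743 and 270 in LG, 810, 1765 and 1294 in EL, 1363, 908 and 768 in PL, and 122, 62.7 and 131 in W2. All 6 lactating samples were above all 9 others, but the margin was narrow, since the highest LG sample (743) came close to the lowest PL sample (768). In order of the means the stages ran EL (1290 ± 478, SD), PL (1013 ± 311), LG (488 ± 238), MG (234 ± 176) and W2 (105 ± 37.0). Neighbours in that order overlapped except PL and LG, whose difference of 525 units exceeded the larger SD.

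After weaning XDH fell by 3.29 on the log2 scale (SE 0.51, limma adjusted p = 0.00078), with all 3 W2 samples below all 3 PL samples. From MG to PL it rose by 2.31 (SE 0.51, adjusted p = 0.0072), a call that was lost when only those stages were fitted (adjusted p = 0.070). Lactating stages (EL and PL) were 2.40 above the non-lactating stages MG, LG and W2 (SE 0.33, adjusted p = 0.00053), and the exact two-sided permutation test of 6 against 9 samples gave p = 0.00080, where the smallest possible value is 2.0e-04. Without the samples titled MG and EL, PL stood 2.21 above LG and W2 (exact permutation p = 0.024, smallest possible 0.012).

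The steps before lactation were not resolved for XDH. Between MG and LG the difference was 1.18 (SE 0.51, adjusted p = 1.0) and between LG and EL 1.45 (SE 0.51, adjusted p = 0.75), with unadjusted p of 0.038 and 0.015. EL and PL differed by -0.32 (SE 0.51, adjusted p = 0.80), and that sign turned under other scalings. W2 vs MG gave -0.98 (SE 0.51, adjusted p = 1.0).

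Since tissue was measured, more secretory cells and more XDH RNA per cell cannot be told apart. Between lactating and non-lactating stages 33.8% of all gene sums were called, and 31.5% were called lower. Of 6 luminal epithelial markers, 1 (CDH1) was called there, and it was lower in lactation. Their summed units were 1343 to 1835 in MG, 1358 to 1540 in LG, 1315 to 1446 in EL, 837 to 1766 in PL and 1476 to 1992 in W2, and none of the 6 was at 0 in any counted sample. The ratio of XDH to EPCAM, an epithelial surface protein, was 1.21 to 2.57 in the lactating samples, 0.526 to 1.22 in LG, 0.229 to 0.699 in MG and 0.110 to 0.233 in W2, with the lowest lactating sample at about the highest of LG. The difference was 2.29 on the log2 scale (exact permutation p = 0.00100). EPCAM itself differed by 0.12 in lactation, whereas CDH1, KRT8, KRT18 and KRT19 differed by -0.72 to -0.58. The median over all gene sums was -0.45. Relative to each of the other 5 luminal markers XDH was 2.21 (ELF5) to 3.13 (KRT8) higher (exact permutation p = 0.00040 to 0.012). This ratio and those below were chosen after the values of the genes were seen.

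XDH has 2 reference transcripts, and both were called. NM_001285974.1 made up 53.0% to 78.6% of the gene sum over the 15 samples and XM_021085675.1 21.4% to 47.0%. After weaning they fell by 3.10 (SE 0.49, adjusted p = 0.0033) and 3.69 (SE 0.58, adjusted p = 0.0032) on the log2 scale. The share of XM_021085675.1 averaged 38.7% in EL, 34.0% in PL, 36.5% in LG, 28.1% in MG and 24.9% in W2, and its range in W2 (22.8% to 27.6%) overlapped that in PL (25.1% to 41.3%).

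CIDEA, a droplet fusion protein of the mammary epithelium and of brown fat, lies at chr6:97253074-97268355. It was listed at 0 in all 3 MG samples, at 0, 0 and 0.310 units in LG, at 0.472, 0 and 0 in EL, at 38.3, 38.5 and 3.33 in PL, and at 0, 0.349 and 0.134 in W2. Every PL sample was above every other counted sample, although PL sample 6 stood far below samples 2 and 3. The stage means outside PL were at most 0.161 units, so the gene passed the authors' minimum of 0.5 through PL alone. A gene admitted in that way had to be high in PL, and the fits below describe the size of the difference and are not independent evidence of it.

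On the log2(units + 0.5) scale, which understates changes of low genes, CIDEA rose by 4.85 from EL to PL (SE 0.71, adjusted p = 0.0032) and fell by 4.80 from PL to W2 (SE 0.71, adjusted p = 0.00061). Without PL sample 6 it fell by 5.91. PL vs MG was called as well (adjusted p = 0.00057), and no fold is given against a stage listed at 0. The lactating stages together were 2.54 above the others (SE 0.46, adjusted p = 0.0020). Fitting EL and PL alone, the rise between them was not called (adjusted p = 0.19).

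Of the 3 annotated CIDEA transcripts 2 were in the table. NM_001112696.1 made up 76.9% to 100% of the gene sum in the 7 samples above 0. XM_005656108.3 was above 0 in 3 samples. Both were called in W2 vs PL. The former fell by 4.59 (SE 0.76, adjusted p = 0.0043) and the latter fell by 2.49 (SE 0.43, adjusted p = 0.0052) on the log2 scale.

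Markers of fat cells were read beside CIDEA because it is known in adipose tissue. Of 6 adipocyte markers, LEP, FABP4 and LIPE were measured, and ADIPOQ, PLIN1 and PCK1 were not analysed here. Their summed units were 250 to 388 in PL and 445 to 732 in the other stages, with no share over all gene sums given here. Nearly all of the sum was FABP4, with a PL mean of 312 units beside 10.7 for LEP and 1.82 for LIPE. FABP4, a fatty acid carrier, fell by 1.16 on the log2 scale from EL to PL (SE 0.20, adjusted p = 0.0077). LEP, the gene of the hormone leptin, rose by 3.61 in the same step (SE 0.68, limma adjusted p = 0.011). Its mean was above 0.5 units in PL alone. As for CIDEA, a high PL value was thus fixed in advance, and the fit is not independent evidence of it. LEP had 1.56, 15.8 and 14.6 units in PL samples 2, 3 and 6, and at most 0.622 in any counted sample of another stage. CIDEA had 38.3, 38.5 and 3.33 units in the same PL samples. The part of fat cells in the CIDEA values was not tested.

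PLIN2, the coat protein of the cytoplasmic droplet, lies at chr1:203683867-203709277. Its units were 1366, 1106 and 1244 in MG, 1347, 1230 and 1317 in LG, 1321, 1006 and 1132 in EL, 491, 1089 and 1005 in PL, and 1457, 1176 and 1290 in W2. The MG and EL ranges overlapped widely, and the PL samples were lower than all W2, LG and MG samples, PL sample 2 by far. Between W2 and PL 44.0% of all gene sums did not overlap. No such share is given here for PL against LG or MG. The order of the means was W2 (1307 ± 141, SD), LG (1298 ± 60.6), MG (1239 ± 130), EL (1153 ± 158) and PL (862 ± 323), with no neighbours further apart than the larger SD.

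PLIN2 was called as higher in W2 than in PL, by 0.68 (SE 0.24, adjusted p = 0.048). The median of all gene sums moved by the same 0.68 in that comparison. Median ratio scaling sets the typical abundant transcript (10 or more units throughout the 15 samples) level between samples, and after it the difference of PLIN2 was -0.0538 (adjusted p = 0.88), and the median of all gene sums was 0.10. Without PL sample 2, the one with 491 units, the difference was 0.32. The call was lost in 13 of the 15 fits that left out 1 sample.

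PLIN2 was lower in lactation by the exact permutation test (p = 0.0048, difference -0.40) but was not called by limma over all genes (adjusted p = 0.064). All gene sums had a median of -0.45 in that comparison, and with median ratio scaling the PLIN2 difference was 0.0585. Relative to the 6 luminal markers in the same sample the sign depended on the marker. The difference was -0.52 against EPCAM (exact permutation p = 0.0084) and -0.60 against ELF5 (p = 0.17, exact permutation), and 0.18 to 0.31 against CDH1, KRT8, KRT18 and KRT19 (exact permutation p = 0.051 to 0.62). For PL vs MG the value was -0.60 (SE 0.24, adjusted p = 0.087) beside a median of -0.57 over all gene sums. With median ratio scaling that value was 0.0672.

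PLIN2 was dominated by NM_214200.2, at 89.0% to 97.5% of the gene sum. XM_005660074.3, XM_005660075.3 and XM_021082975.1 held up to 4.50%, 6.11% and 3.53%, and XM_013993524.2 was above 0 in 2 samples. None of the 5 transcripts was called in W2 vs PL, PL vs MG or lactating vs non-lactating.

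The ratio of XDH to PLIN2, a membrane partner to a droplet coat, does not depend on the scaling of the sample. It was 0.110 to 0.319 in MG, 0.205 to 0.604 in LG, 0.613 to 1.75 in EL, 0.764 to 2.77 in PL and 0.0533 to 0.101 in W2. The lactating samples were all above the others, by 2.81 on the log2 scale (exact permutation p = 0.00040), and the W2 samples were all below the MG samples. The lowest EL sample (0.613) and the highest LG sample (0.604) nearly met.

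**Figure D2:**
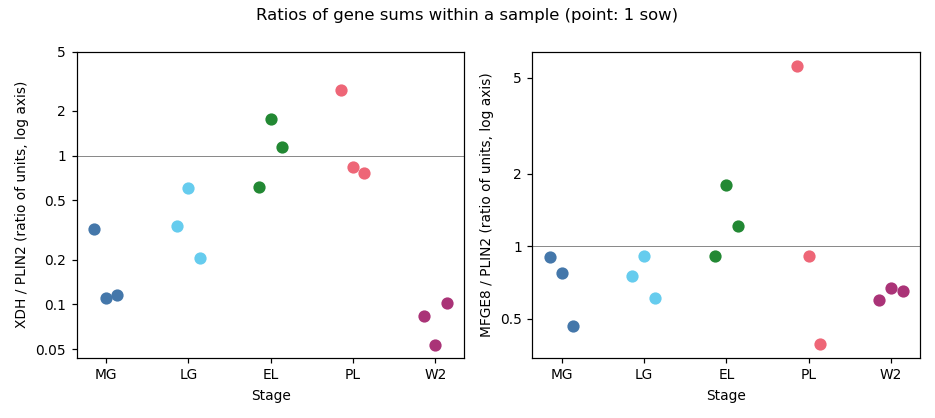
Ratio of XDH to PLIN2 (left) and of MFGE8 to PLIN2 (right) within each sample on a log axis, by stage, with 1 point per sow. The XDH ratio was 0.613 or more in EL and PL and 0.604 or less in MG, LG and W2, whereas the MFGE8 ratio in PL ran from 0.395 to 5.62.

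PLIN3, a perilipin of nascent droplets that is also found free in the cytosol, lies at chr2:73970149-73995314. Its units lay between 31.1 and 61.0 in all 15 samples, and every pair of stages overlapped. The means were 53.3 ± 8.33 (SD) in MG, 50.9 ± 5.89 in W2, 49.8 ± 11.0 in LG, 42.8 ± 6.33 in EL and 40.7 ± 8.32 in PL, and no neighbours in this order differed by more than the larger SD. The lactating stages were at -0.30 relative to the others (SE 0.14, adjusted p = 0.11, exact permutation p = 0.027), a sign that turned to 0.16 with median ratio scaling. PL vs MG gave -0.40 (SE 0.21, adjusted p = 0.19) and W2 vs PL 0.34 (SE 0.21, adjusted p = 0.24).

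Of its 6 transcripts NM_001031778.1 held 60.7% to 96.8% of the sum and XM_021082009.1 3.20% to 38.6%. XM_021082007.1, XM_021082012.1, XM_021082016.1 and XM_021082020.1 never passed 5.03%. None was called in W2 vs PL, PL vs MG or lactating vs non-lactating.

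MFGE8 lies at chr7:54539970-54554885. Its units were 1236, 859 and 581 in MG, 1011, 1125 and 805 in LG, 1204, 1810 and 1371 in EL, 2759, 992 and 396 in PL, and 870, 793 and 844 in W2. The PL sows spanned the whole range of the gene, from its lowest to its highest value, whereas the W2 sows lay between 793 and 870 units. The EL samples were all above the LG and W2 samples, for which no share over all gene sums is given here. With 3 against 3 samples the smallest two-sided exact permutation p is 0.10. No fitted comparison was called for MFGE8, and EL vs W2 was not fitted. Means ran EL (1462 ± 313, SD), PL (1383 ± 1229), LG (980 ± 162), MG (892 ± 329) and W2 (836 ± 39.3), and every neighbouring difference was below the larger SD.

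The lactating stages were 0.46 above the others for MFGE8 (SE 0.33, adjusted p = 0.30, exact permutation p = 0.20), and W2 vs PL was -0.30 (SE 0.51, adjusted p = 0.69). PL sample 2, with 2759 units, decided the sign of the latter, which was 0.41 without it. PL vs MG was 0.27 (SE 0.51, adjusted p = 0.74) and -0.44 without that sample. Relative to PLIN2 the difference in lactation was 0.87 (exact permutation p = 0.049), with PL running from 0.395 to 5.62. Over the whole report 35 exact permutation tests were made, 3 for each member and 14 of ratios, and their p-values are not adjusted.

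The leading transcript of MFGE8, NM_001122984.1, held 65.5% to 69.4% of the gene sum in all 15 samples (SD 1.22 percentage points), also in the PL samples whose sums differed most. The others varied more, XM_013996945.2 with 13.9% to 33.3% and XM_021098306.1 0.446% to 19.7%. None was called in W2 vs PL, PL vs MG or lactating vs non-lactating.

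MUC1, a heavily glycosylated mucin of the apical membrane, lies at chr4:94626317-94631194. Its units were 10.5, 63.6 and 41.8 in MG, 65.0, 34.1 and 38.5 in LG, 10.1, 6.72 and 54.8 in EL, 35.4, 49.1 and 19.0 in PL, and 79.5, 31.1 and 6.33 in W2. Sows of a stage differed by more than the stages did, with an SD of 15.0 to 37.2 units around means of 23.9 to 45.9, and every pair of stages overlapped. The means ran LG (45.9), W2 (39.0), MG (38.7), PL (34.5) and EL (23.9), with no neighbours apart by more than the larger SD. No comparison was called: lactating vs non-lactating was -0.52 (SE 0.61, adjusted p = 0.53, exact permutation p = 0.42), W2 vs PL -0.34 (SE 0.94, adjusted p = 0.82) and PL vs MG 0.07 (SE 0.94, adjusted p = 0.98).

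The division of MUC1 between its transcripts also varied. XM_021089728.1 held 36.0% to 40.7% of the sum in EL and 56.2% to 82.5% in PL, ranges that did not meet, and XM_021089729.1 53.1% to 62.5% in EL and 17.4% to 43.8% in PL. In MG, LG and W2 XM_021089728.1 held 39.9% to 87.5%, 39.7% to 73.5% and 43.1% to 59.4%, and the LG range overlapped those of EL and PL. The EL shares came from gene sums of 10.1, 6.72 and 54.8 units. XM_021089730.1 stayed at or below 6.19%. Shares were not tested.

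**Figure D3:**
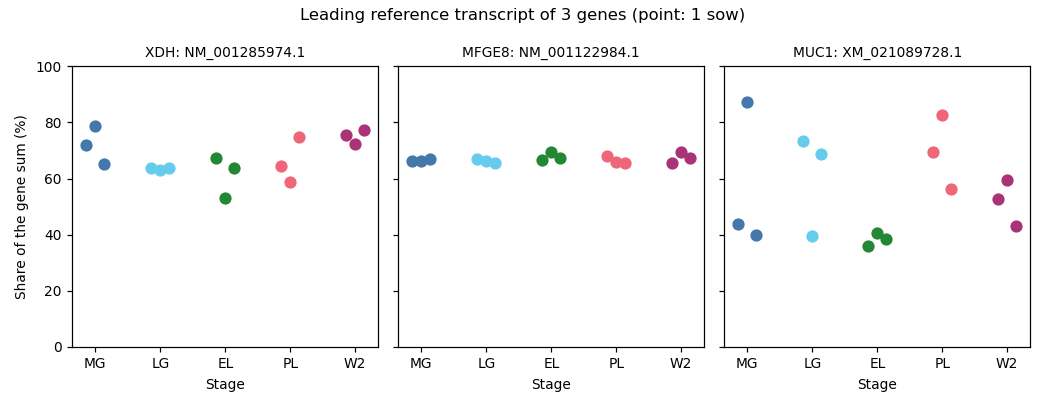
Share of the gene sum (%) held by the leading reference transcript of XDH, MFGE8 and MUC1 in each of the 15 counted samples, by stage, with 1 point per sow. The MFGE8 share stayed between 65.5% and 69.4%, while that of MUC1 ran from 36.0% to 87.5%.

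BTN1A1, butyrophilin, lies at chr7:20977940-20985300 and has 1 reference transcript, XM_021099851.1. Its units were 3.60, 1.23 and 8.56 in MG, 2.82, 16.8 and 3.38 in LG, 0.808, 4.82 and 0.311 in EL, 4.85, 2.84 and 0.156 in PL, and 0.213, 0 and 2.08 in W2. All LG samples were above all W2 samples, a pair that was not fitted and for which no share over all gene sums is given here. The other pairs of stages overlapped, and the SD was 83.8% to 150% of the mean in each stage. The means ran LG (7.65), MG (4.46), PL (2.62), EL (1.98) and W2 (0.766), with neighbours apart by less than the larger SD. Lactating vs non-lactating was -0.51 (SE 0.65, adjusted p = 0.56, exact permutation p = 0.53), W2 vs PL -1.22 (SE 1.01, adjusted p = 0.37) and PL vs MG -0.82 (SE 1.01, adjusted p = 0.59).

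By comparison, the members were called as follows, with CIDEA included although it entered the table through PL. Without it 2 of 6 were called in W2 vs PL, 1 in PL vs MG, 1 in lactation and 0 in PL vs EL. In W2 vs PL 3 of 7 were called, 2 lower (XDH, CIDEA) and 1 higher (PLIN2), against 32.8% of all gene sums. Calls as lower were 2.48% of all gene sums in W2 vs PL. Of the 22 member transcripts 4 were called, all lower, and 2 of 20 without CIDEA. Of all 61773 transcripts 7.13% were called, and 464 were called lower. XDH, CIDEA and PLIN2 were also the 3 members whose W2 and PL samples did not overlap, as 44.0% of all gene sums did not. Among all calls in W2 vs PL 7.54% were lower as deposited and 42.1% after median ratio scaling, so directions of small changes depended on the scaling.

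In PL vs MG 2 of 7 were called, both higher (XDH, CIDEA), against 25.2% of gene sums called in either direction and 2.23% called as higher. Of the member transcripts 4 were called as higher there, and 2 of 20 without CIDEA. Of all 61773 transcripts 4.28% were called, and 328 were called higher. Lower calls were 91.2% of all calls as deposited and 53.5% after median ratio scaling. The same 2 genes were called as higher in lactating vs non-lactating stages, against 33.8% called in all and 2.34% called as higher. At the transcript level 4 were called, all higher, and 2 of 20 without CIDEA. Of all 61773 transcripts 6.43% were called, and 437 were called higher. XDH was the 1 member whose 6 lactating samples did not overlap the 9 others, which held for 5.43% of gene sums.

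Between EL and PL 1 of 7 was called, CIDEA, against 4.62% of gene sums and 0.776% called as higher. No member was called by limma in LG vs MG, EL vs LG or W2 vs MG, where 1, 1 and 0 had an unadjusted p under 0.05. Few genes of any kind were called in them, with 0.0115%, 0.0154% and 0.0115% of gene sums. W2 vs PL and PL vs MG share the PL samples, and both also share samples with the lactating contrast.

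**Figure D4:**
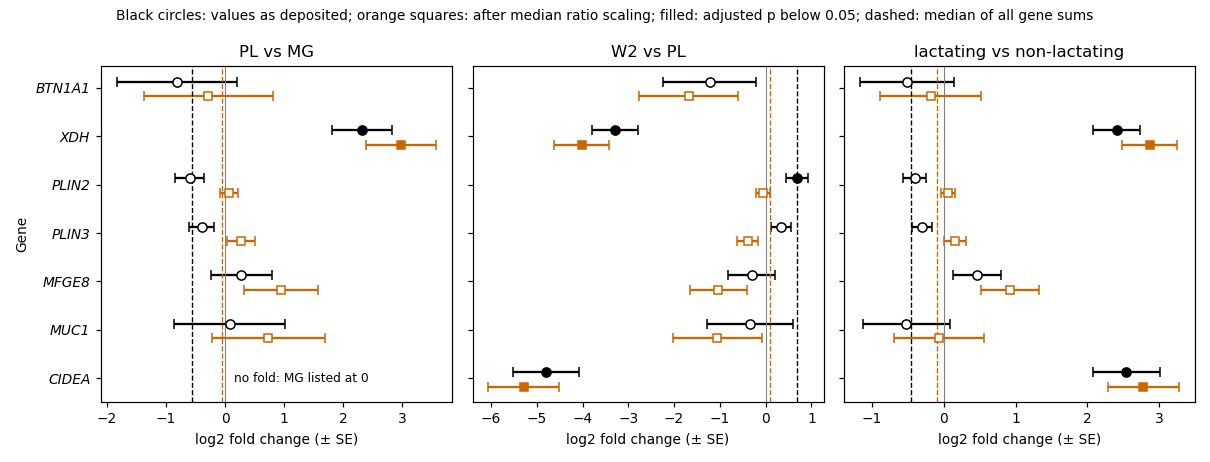
Log2 fold change (± SE) of each member in PL vs MG, W2 vs PL and lactating vs non-lactating stages, from values as deposited (black circles) and after median ratio scaling (orange squares), filled where the adjusted p was below 0.05, with the median of all gene sums dashed and no fold drawn for CIDEA against MG. XDH and CIDEA stood far from the dashed lines under both scalings, and PLIN2 lay on or near them, as in W2 vs PL with 0.68 for both.

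Other genes known from the globule membrane were read from a list of 15, all of them in the table (FOLR1 as 2 gene records). In lactating vs non-lactating stages 1 was called higher (SLC34A2) and 2 lower (GNB1, GNAI2), in W2 vs PL 2 higher (GNB1, RAB11A) and 1 lower (SLC34A2), and in PL vs MG 1 higher (SLC34A2) and 1 lower (GNB1). These 3, 3 and 2 of 16 records are smaller shares than the 33.8%, 32.8% and 25.2% of all gene sums called. The median of the list was 0.22 in lactation, where all gene sums had -0.45, and -0.24 in W2 vs PL, where they had 0.68. SLC34A2, a phosphate transporter, had 116 to 160 units in MG, 198 to 228 in LG, 226 to 345 in EL, 224 to 252 in PL and 124 to 136 in W2. It was 0.70 higher in lactation on the log2 scale (SE 0.10, adjusted p = 0.00079) and fell by 0.84 after weaning (SE 0.16, adjusted p = 0.0025).

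GNB1, a G protein subunit, had 66.9 to 105 units in PL and 176 to 183 in W2 and rose by 0.99 between them (SE 0.17, adjusted p = 0.0012). The highest of the list by level was FABP3, a fatty acid carrier of the secretory cell, at 3396 to 8664 units over all samples. It was not called in any comparison. MUC15, another membrane mucin, had 216 to 509 units in EL, 39.6 to 381 in PL and 108 to 130 in W2 and was not called either.

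From a list of 13 other lipid droplet genes 12 were measured, and PLIN1 was not analysed here. BSCL2 (seipin, of droplet biogenesis) and DGAT1 (which makes triglyceride) were called higher in W2 than in PL and lower in PL than in MG. Of all 26019 gene sums, 7901 were called higher in W2 vs PL and 5983 lower in PL vs MG, larger shares than 2 of 12. In PL vs MG DGAT1 was at -0.56 and BSCL2 at -0.88, where the median over all gene sums was -0.57. In lactating stages BSCL2, DGAT1 and HILPDA, an inhibitor of lipolysis, were called lower, and none higher. These 3 of 12 are a smaller share than the 31.5% of all gene sums called lower there, and DGAT1 at -0.40 was nearer 0 than the median of -0.45. BSCL2 had 19.4 to 26.1 units in PL and 43.3 to 58.0 in W2, a rise of 1.06 (SE 0.22, adjusted p = 0.0038), and DGAT1 rose by 0.77 (SE 0.17, adjusted p = 0.0056), against a median of 0.68 over all gene sums. The highest by level was G0S2, an inhibitor of the lipase ATGL, with 35.9 to 504 units and no call. CIDEB and CIDEC, the relatives of CIDEA, stayed at or below 3.13 and 4.26 units in every counted sample, and neither was called.

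The 7 genes resembled different companions over the 15 samples, by Pearson r of log2(units + 0.5) among genes averaging at least 10 units. All samples share the fixed total, so these values are descriptions only. XDH was closest to CSN2, the beta-casein gene (r = 0.97), PGLYRP1 (0.96) and ANKRD22 (0.95). CIDEA was closest to INSIG1 (0.94), HMGCS1 (0.90) and RCAN1 (0.90), of which the first pair belong to the control and synthesis of cholesterol. Their Spearman rho was 0.59, 0.58 and 0.56, and CIDEA was at or near 0 outside the 3 PL samples. INSIG1 averaged 72.6 units in PL and 10.2 to 17.3 in the other stages, and HMGCS1 194 in PL and 26.4 to 41.3 elsewhere.

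MFGE8 was closest to MUC15 (0.91), GPR155 (0.91) and FABP3 (0.87), of which MUC15 and FABP3 are on the list of globule membrane genes. PLIN2 was closest to RHBDD2, RNF214 and ZNF524 (0.96 each), and their Spearman rho was 0.83, 0.69 and 0.68. PLIN3 was closest to PAF1 (0.89), MUC1 to NISCH (0.85) and BTN1A1 to FDPS (0.66). No 2 of the 7 genes shared a closest companion.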

How the data were processed

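RNA-seq libraries had been made from mammary parenchyma of 30 sows, 6 per stage. The authors trimmed reads with Trimmomatic after FastQC, aligned them to Sscrofa11.1 with HISAT2, assembled and quantified transcripts with StringTie, and removed transcripts below an FPKM of 0.5 in all stages. They name RUVs for unwanted variation, and whether the deposited FPKM values include it is not given in the sources used here. The deposited FPKM values sum to about the same total in every sample and give no reads per transcript. The read totals that the study lists per library were not used here, so no counting error is given and precision comes from the spread between samples.

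Samples were grouped by title. In each stage the median pair difference of 3 samples was at most 1.85% (19.6% to 59.8% among the others), and these were not counted. Transcripts were matched to RefSeq genes of Sscrofa11.1 and summed per gene. limma 3.58.1 in R 4.3.3 with trended variance was fitted to log2(units + 0.5), with Benjamini-Hochberg adjustment, and exact permutation tests used Python 3.11.15 and scipy 1.17.1. limma took the place of a count test because the values are not counts. On simulated data for PL vs MG over 26019 gene sums, 71 of 100 planted log2 changes of 2 and 86 of 100 of 3 were called, with 10 unchanged genes called. The planted genes had a mean log2(units + 0.5) above 3, a level that BTN1A1 and CIDEA did not reach. The simulated spread of a gene was the same in every stage, and no fixed total was imposed. Alternatives were other pseudocounts, a low-value filter, 2 other scalings, other sample sets, a replicate block and a fold threshold. The named genes were the 7 members with their transcripts, those called or highest by level in the 2 further lists, and the genes most alike in profile. Members and lists were chosen with earlier results of these data known. Promoter motifs were not analysed here.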

Additional observations from a re-analysis of the deposited data

How the results depend on the processing

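XDH and CIDEA kept direction and call in W2 vs PL and in lactating vs non-lactating stages under all alternatives run. CIDEA entered the table through PL alone, so a high PL value was fixed in advance and its kept calls are not independent evidence. Its call in lactating stages rested on PL, since it averaged 0.157 units in EL and 0.161 in W2. Counts of members called moved with the samples used. With all 6 samples per stage they were 1 (LG vs MG), 2 (EL vs LG), 2 (PL vs EL), 4 (PL vs MG), 2 (W2 vs MG), 5 (lactating) and 6 (any stage). Of all 26019 gene sums, 3688, 5692, 10116, 15118, 2254, 16697 and 19733 were called there, in the same order. Member transcripts called numbered 7, 11, 14 and 17 (W2 vs PL, PL vs MG, lactating, any stage), beside 28315, 25209, 28107 and 42549 of all 61773. With near-identical samples counted once, 4 members were called in PL vs MG and 4 in lactation, beside 11403 and 13347 of all gene sums. With only the stages compared 0 were called in PL vs EL and 1 in PL vs MG, beside 43 and 1757 of all gene sums. Leaving out 1 sample gave 2 to 4 members in lactation (4 without PL replicate 6). The replicate numbers did not pair the sows (mean r 0.0133 over 19 same-number pairs, -0.00360 over 71 others). With the replicate block 0, 2 and 0 member transcripts passed (PL vs MG, lactating, any stage), beside 389, 1162 and 193 of all 61773.

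Signs turned for members that were not called and for PLIN2. With median ratio scaling the log2 values were 0.0256 (XDH, PL vs EL), -0.0538, 0.0672 and 0.0585 (PLIN2 in W2 vs PL, PL vs MG and lactation) and -0.39, 0.27 and 0.16 (PLIN3 in the same order). With quantile normalization they were 0.15 (XDH, PL vs EL), 0.0653 (PLIN2, PL vs MG) and -0.31, 0.15 and 0.12 (PLIN3). MUC1 in PL vs MG was -0.0607 with all 6 samples and -0.70 with the replicate block. Leaving out 1 sample gave -0.99 to 0.41 (MFGE8) and -1.15 to 0.62 (MUC1) in W2 vs PL, and -1.44 to 0.0780 (BTN1A1), -0.44 to 0.96 (MFGE8) and -0.68 to 0.60 (MUC1) in PL vs MG. The cause was not tested. For 23 further fold changes that the text does not give, 32 values under alternatives turned sign.

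Gene sums called in W2 vs PL numbered 8545, and 3546, 3441, 16475 and 2960 with quantile normalization, median ratio scaling, all 6 samples and only the stages compared. In PL vs MG they were 6563 and 3006, 2853, 15118 and 1757, with 2986 under the block. In lactation they were 8794 and 3083, 3109 and 16697.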

Other observations

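The samples that were not counted carried values close to the mean of the counted sows for abundant members and further from it for low ones. For XDH they were within 0.680% of that mean in every stage and for MFGE8 within 0.166%. For BTN1A1 they were up to 55.2% away (W2, mean 0.766 units, uncounted values 1.19, 1.11 and 0.939). CIDEA, listed at 0 in all counted MG samples, was at 0, 0.686 and 1.04 units in the uncounted ones, and in LG at 0.359, 0 and 1.82 where the counted mean was 0.103. In PL the uncounted values of CIDEA were 26.1, 27.6 and 28.0 units, beside a counted mean of 26.7 and counted values of 38.3, 38.5 and 3.33.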
